A study of Mus musculus with 15 samples.

Results

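The transcripts described here were higher early in macrophages given lipopolysaccharide (LPS) and still held more than 0.5 of that early level at 4 h. They were chosen by measured values, on the TPM scale (abundance per length and depth), after the most abundant transcript, ENSMUST00000217116.1, had been removed and each library rescaled to 1000000. A transcript was kept if its group mean plus 1 was at least 4 times the untreated mean plus 1 at each of the 4 times, if all 12 LPS libraries lay above all 3 untreated libraries, and if its 4 h mean plus 1 was over 0.5 of the larger of its 30 min and 1 h means plus 1. Of 113193 listed transcripts, 310 met the condition on folds, 180 of these also met the condition on libraries, and 121 met all 3. The other 59 of the 180 were at or under 0.5 of their early level at 4 h. Since every comparison of LPS with untreated cells entered the choice, such values are given as a description.

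The cells were bone marrow-derived macrophages of C57BL/6 mice, grown in medium conditioned by L929 cells and taken at day 7 of differentiation, either left untreated or given 10 ng/ml LPS for 30 min, 1 h, 2 h or 4 h. Each of the 5 groups had 3 unstranded libraries of RNA that stays with chromatin. No genetic change or other agent is named for any group, and the labels do not say whether a replicate was a culture or an animal of its own. No table used here gives a gene name for these identifiers, so transcripts are numbered 1 to 121 from the highest to the lowest mean over the 12 LPS libraries. For the same reason the labelled cell type was not checked against its markers, no sequence is shown, and isoforms of 1 gene may be counted as separate transcripts. Transcripts 67 and 68, both 3353 nt long, had the same estimated counts in every library and are 1 measurement listed under 2 identifiers.

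LPS, a component of the outer membrane of gram-negative bacteria, is sensed by Toll-like receptors at the macrophage surface. Signalling through the adaptors MyD88 and TRIF activates NF-κB, MAP kinases and interferon regulatory factors, which switch on waves of cytokine, chemokine and regulator genes. Some of these genes need no new protein to start and are shut off quickly by feedback, while others are kept on by later factors. RNA on chromatin is rich in transcripts still being made, so its level follows transcription more closely than that of RNA in the whole cell, where stable messages build up.

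Libraries held 7537521 to 11892599 estimated counts. The 30 min libraries stood apart from each other. Summed over the 121 transcripts, the level was 12588 TPM in replicate 1, 31886 in replicate 2 and 17051 in replicate 3, so replicate 2 was already in the range of the later times and replicate 1 was well under it. Replicate 2 was the highest of the 3 libraries for 89 transcripts, and replicate 1 the lowest for 84. The 1 h libraries lay closer together, at 31515, 31723 and 21983 TPM. Against the untreated mean, 61 transcripts were at least 4 times higher in all 3 of the 30 min libraries, 31 in 2 of them and 29 in a single one. Without 30 min replicate 2, 32 of the 121 fell under the 4-fold condition at that time, and the median log2 fold at 30 min went from 3.27 to 2.77. The whole rule applied without that library gave 95 transcripts, of which 88 were among the 121.

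**Figure D1:**
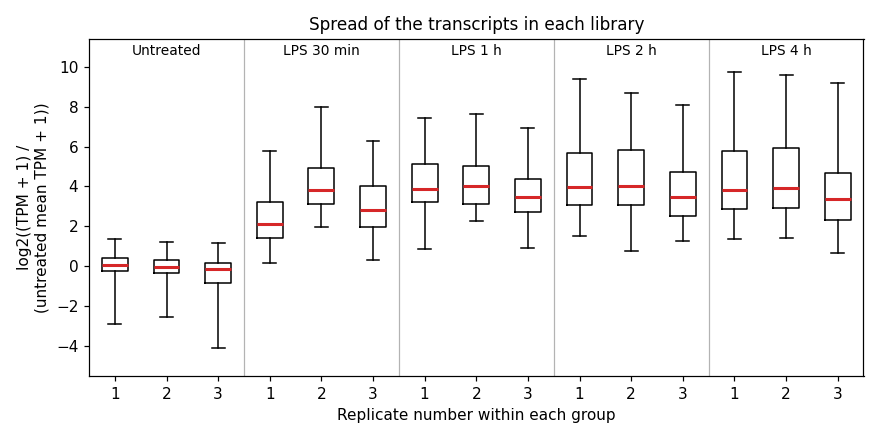
Each box shows the 121 transcripts in 1 library, as log2 of TPM plus 1 over the untreated mean plus 1 (red line, median; box, quartiles; whiskers, lowest and highest), for 3 replicates in each of 5 groups. At 30 min the medians were 2.12, 3.82 and 2.80, and from 1 h on they lay between 3.39 and 4.05.

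Together the 121 transcripts made up 0.171% ± 0.029 (SD, n = 3) of the rescaled TPM in untreated cells. At 30 min their share was 2.05% ± 1.01 and at 1 h 2.84% ± 0.56. It was 3.26% ± 0.70 at 2 h and 3.47% ± 0.81 at 4 h. The LPS groups overlapped one another and none overlapped the untreated group, as the choice of the transcripts requires. In bulk RNA a change in the number of responding cells and a change in the RNA of each cell cannot be told apart. The 5 highest transcripts held 15.4% ± 3.6 of the summed level in untreated cells and 26.4% ± 3.5 at 4 h.

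Against untreated cells the median log2 fold over the 4 times was 3.27, 3.75, 4.01 and 3.89. The largest values were 6.65, 7.19, 8.69 and 9.34, and those of at least 16-fold numbered 40, 53, 61 and 57. At 30 min the typical transcript had reached 51.0% of its highest rise, with a range from 2.37% to 100%. The highest of the 4 LPS means was that of 30 min for 6 transcripts and that of 1 h for 51. For 28 it was the 2 h mean and for 36 the 4 h mean. The time courses were thus of several kinds. In all, 60 of the 121 kept their 4 LPS means within 2-fold of one another, 22 had a higher mean at each step from 30 min to 4 h and 4 a lower mean at each step.

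**Figure D2:**
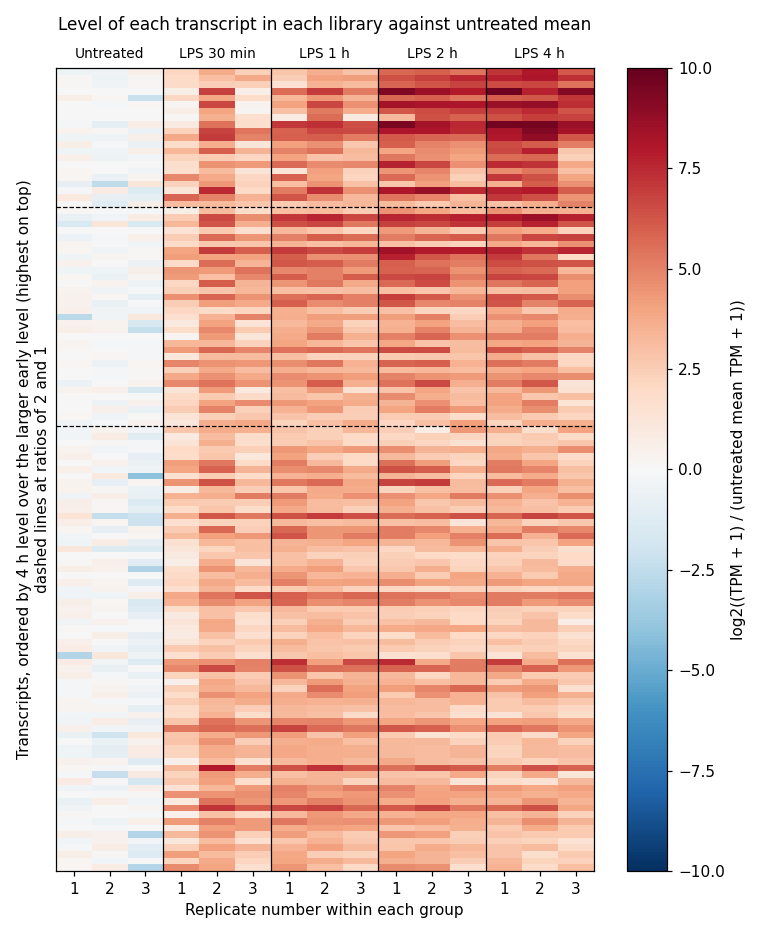
Colour gives log2 of TPM plus 1 over the untreated mean plus 1 for each of the 121 transcripts (lines) in each of the 15 libraries (columns, 3 replicates a group), ordered by the 4 h level over the larger of the 30 min and 1 h levels. The dashed lines set off the 21 transcripts with a ratio over 2 and the 67 with a ratio of at most 1, and 30 min replicate 1 is paler than 30 min replicate 2.

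The edgeR quasi-likelihood test of rounded estimated counts, adjusted over all 46186 transcripts that passed the filter on low counts, gives the background. Of the 121, 120 passed the filter, and transcript 120 did not. At 30 min 55 of the 120 were called raised, where 0.351% of all tested transcripts were, and at 1 h 86, where 0.944% were. At 2 h 102 were called raised (background 1.97%) and at 4 h 113 (background 3.91%). Lowered calls made up 0.0173%, 0.0953%, 0.591% and 2.33% of all tested transcripts at the 4 times, and none of the 120. A fit that took the replicate number as a block called 86, 111, 118 and 120 of the 120 raised over the 4 times. The background was then 0.916%, 2.93%, 6.42% and 8.87% raised and 0.0888%, 0.97%, 3.06% and 6.27% lowered. All 3 LPS libraries lay above all 3 untreated libraries for every member, and for 3.09%, 5.49%, 7.19% and 6.7% of all tested transcripts over the 4 times. On this scale 12.3%, 19.3%, 23.2% and 29.6% lay fully lower, and no member did. DESeq2 called 116 of the 120 raised at 30 min, where 1.93% of its tested transcripts were. The rule used these same contrasts, so nothing is read from the counts. They changed with the library left out: at 30 min the count was 11, 2 and 13 without untreated replicate 1, 2 or 3, and 26 and 35 without 30 min replicate 2 or 3. At 1 h it was 28, 18 and 36 without untreated replicate 1, 2 or 3 and 56 without 1 h replicate 2, and at 2 h 57, 36 and 56 without untreated replicate 1, 2 or 3. In the same fits, of 48659 to 49737 tested transcripts, the number raised among all of them fell too. In the same order it went at 30 min from 162 to 25, 5 and 37, and to 62 and 100. At 1 h it went from 436 to 94, 46, 106 and 201, and at 2 h from 911 to 299, 133 and 236. Without 30 min replicate 1 the 30 min count of members rose to 80, and the number raised among all rose to 296. Without 1 library of 1 h, 2 h or 4 h, outside that comparison, the 30 min count of members ran from 37 to 54. The number raised among all then ran from 105 to 150.

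The 12 highest transcripts had group means of up to 2818 TPM. The highest of all was ENSMUST00000019074.3 (number 1, 660 nt), with like means at all 4 LPS times. Its level was at 84.9, 71.0 and 91.4 TPM in untreated cells, 1138, 1991 and 1182 at 30 min, 2177, 1893 and 1526 at 1 h, 2563, 1845 and 1575 at 2 h and 1839.8, 2277 and 2119 at 4 h. The untreated libraries were all below 100 TPM, and each LPS group overlapped the others. ENSMUST00000022722.6 (number 2, 2623 nt) had its highest mean at 4 h. It was at 5.14, 6.79 and 15.6 TPM in untreated cells, 59.5, 993 and 256 at 30 min, 1354, 2044 and 1055 at 1 h, 2028, 1705 and 2178 at 2 h and 2567, 3788 and 2100.4 at 4 h. The 30 min libraries differed most, with replicate 1 the lowest and replicate 2 just below the 1 h range, and the 4 h libraries all lay above those of 1 h. Its mean plus 1 was 42.9 times the untreated mean plus 1 at 30 min and 277 times at 4 h.

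Number 3 (1578 nt) was at 58.5, 50.2 and 63.0 TPM in untreated cells, 1394, 1317 and 1494 at 30 min, 1760.1, 979 and 1187 at 1 h, 1409, 954 and 971 at 2 h and 817, 693 and 824 at 4 h. This transcript had the closest replicates at 30 min among the 12, and its 4 h libraries all lay below those of every other LPS group. Number 4 (766 nt) was at 126, 91.9 and 95.3 TPM in untreated cells, 1033, 1076 and 512 at 30 min, 1607, 1039 and 719.5 at 1 h, 1557, 749.8 and 914 at 2 h and 1512, 1686 and 1089 at 4 h. It was the highest of the 121 in untreated cells with means plus 1 that were 8.29 times (30 min) to 13.6 times (4 h) the untreated mean plus 1, and the 4 h libraries lay above those of 30 min. Number 5 (1094 nt) was at 5.09, 4.12 and 2.26 TPM in untreated cells, 23.4, 522 and 193 at 30 min, 290.2, 492 and 474 at 1 h, 1322, 1345 and 868 at 2 h and 1389, 2981 and 1505 at 4 h. All of its 2 h libraries lay above all earlier ones, and all of its 4 h libraries above those of 2 h. Number 6 (842 nt) was at 17.3, 17.2 and 37.3 TPM in untreated cells, 516, 479.8 and 1098 at 30 min, 709, 837 and 463 at 1 h, 1507, 1402 and 556 at 2 h and 1491, 1266 and 253 at 4 h. Replicate 3 was the highest library at 30 min and the lowest at 1 h, 2 h and 4 h.

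Number 7 (3762 nt) was at 109.5, 105 and 34.0 TPM in untreated cells, 119, 751 and 261 at 30 min, 799, 1064 and 776 at 1 h, 1132, 702 and 649 at 2 h and 523, 402 and 618 at 4 h. Here 30 min replicate 1 was barely above the untreated libraries, and the 1 h and 2 h libraries overlapped. Number 8 (2230 nt) was at 3.39, 2.00 and 3.29 TPM in untreated cells, 58.8, 504 and 246 at 30 min, 484, 382 and 473 at 1 h, 1321, 955 and 942 at 2 h and 806, 582 and 779 at 4 h. The 2 h libraries stood above those of every other group. Number 9 (6199 nt) was at 5.61, 7.37 and 9.29 TPM in untreated cells, 234, 1231 and 594 at 30 min, 846, 977 and 461 at 1 h, 582, 890.4 and 324 at 2 h and 460.1, 678 and 122 at 4 h. The 4 h libraries spanned a wider range than the 4 LPS means did. Number 10 (4627 nt) was at 9.51, 15.1 and 19.1 TPM in untreated cells, 427, 663 and 355 at 30 min, 340.5, 1052 and 188 at 1 h, 677, 1511 and 194 at 2 h and 535, 1175 and 36.9 at 4 h. Replicate 2 was the highest library at every LPS time, and 4 h replicate 3 was the lowest of the 12 LPS libraries.

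Number 11 (532 nt) was at 0.819, 0 and 2.16 TPM in untreated cells, 2.74, 86.1 and 5.70 at 30 min, 271, 309.8 and 176 at 1 h, 1356, 627 and 370.2 at 2 h and 1535, 1539 and 793 at 4 h. This short transcript rested on 3.11 estimated counts in its lowest LPS library, and 2 of its 3 libraries at 30 min were under 10 TPM. Number 12 (456 nt) was at 13.7, 7.71 and 7.17 TPM in untreated cells, 407, 573 and 489.8 at 30 min, 1150.5, 538 and 417 at 1 h, 796, 666 and 255 at 2 h and 591, 417 and 233 at 4 h. The LPS groups overlapped one another, and replicate 3 was the lowest from 1 h on.

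**Figure D3:**
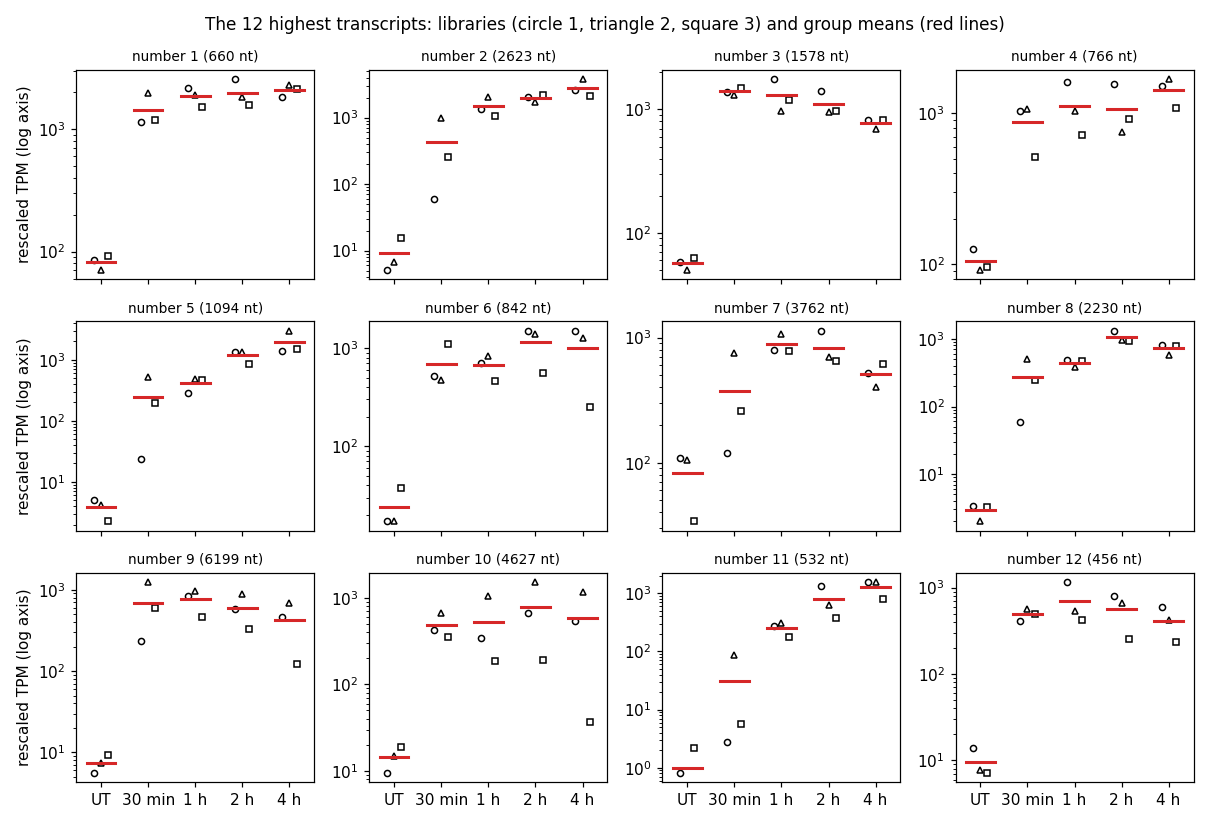
Each panel shows 1 of the 12 highest transcripts, with rescaled TPM on a log axis, 1 symbol for each of 3 libraries in the 5 groups (UT, untreated) and a red line at the group mean. Untreated replicate 2 of number 11, listed at 0, is not drawn on the log axis. The mean of number 3 was 1402 at 30 min and 778 at 4 h, that of number 5 was 246 and 1959, and 30 min replicate 1 (circle) was low for numbers 2, 5, 7, 8 and 11.

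The other 109 transcripts had untreated means of 0 to 75.1 TPM (median 4.99). Their group means were 3.54 to 595 at 30 min (median 73.5), 7.84 to 607 at 1 h (median 113), 5.84 to 822 at 2 h (median 137) and 8.72 to 807 at 4 h (median 126). Of all 121, 19 had an untreated mean under 1 TPM and 8 had no untreated library with an estimated count that rounds to 1. For those 8 a fold is a lower bound against 3 counts in each untreated library. At 4 h it was at least 976-fold for number 36 (1836 nt), at least 315-fold for number 91 (2697 nt) and at least 303-fold for number 95 (2343 nt). For numbers 102 (651 nt), 114 (1402 nt) and 94 (358 nt) it was at least 41.7-fold, 32.9-fold and 17.9-fold. The bound did not reach the 4-fold of the rule at every time: it was 1.82 for number 102 at 30 min and 3.22 for number 94 at 2 h. For number 118 (514 nt) it lay between 1.99 and 2.94 at all times. Number 120 (416 nt) had 1 to 2 estimated counts at 30 min, where the floor of 3 counts was not passed, and its highest bound was 2.44 at 2 h. The folds that chose these 4 transcripts thus rest on counts too few to bound them at 4-fold.

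How far the level was held differed among the transcripts. The ratio of the 4 h mean plus 1 to the larger early mean plus 1 had a median of 0.901 and ran from 0.502 to 17.5. It was over 2 for 21 transcripts, over 1 and up to 2 for 33, and at most 1 for 67. The rule used this ratio, so the classes are a description. The 21 started lower, with a median untreated mean of 1.26 TPM against 7.39 and 7.81 in the other classes. Their median log2 folds were 3.35, 4.27, 5.71 and 6.77 over the 4 times, those of the 33 were 3.82, 4.06, 4.57 and 4.40, and those of the 67 were 3.20, 3.66, 3.30 and 3.06. Summed, the 21 went from 1182 ± 1089 TPM at 30 min to 9046 ± 3206 at 4 h (SD, n = 3). The 67 went from 11893 ± 5920 at 30 min and 15809 ± 2756 at 1 h to 10702 ± 1122 at 4 h.

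**Figure D4:**
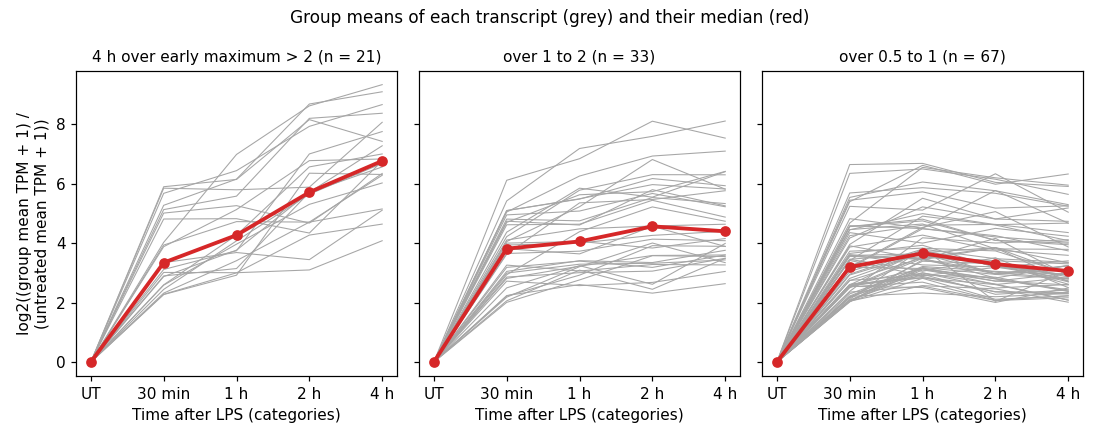
Grey lines show the group means of each transcript, as log2 of mean TPM plus 1 over the untreated mean plus 1, against time as categories, and red lines their median, in 3 classes of the 4 h level over the larger early level. In the class over 2 the median went from 3.35 at 30 min to 6.77 at 4 h, and in the class up to 1 it went from 3.20 to 3.06.

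The 5 largest ratios belonged to transcripts that were low at 30 min and 1 h. Number 49 (1613 nt) was at 1.58, 1.91 and 4.40 TPM in untreated cells, 14.5, 45.5 and 18.2 at 30 min, 24.0, 43.9 and 25.5 at 1 h, 189, 231 and 149 at 2 h and 510.1, 930.4 and 248 at 4 h. Its ratio was 17.5, and its 4 h libraries all lay above its 2 h libraries, which lay above all earlier ones. Number 57 (1687 nt) was at 0.855, 0.215 and 0.987 TPM in untreated cells, 5.66, 12.8 and 22.4 at 30 min, 8.18, 26.5 and 30.2 at 1 h, 136, 190.4 and 321 at 2 h and 364, 457 and 271 at 4 h. The ratio was 16.1, and all of its 2 h and 4 h libraries lay above those of 30 min and 1 h, while 2 h and 4 h overlapped. Number 88 (4968 nt) was at 1.10, 0.527 and 1.10 TPM in untreated cells, 6.39, 9.38 and 8.87 at 30 min, 4.30, 20.2 and 15.9 at 1 h, 107, 148 and 210.3 at 2 h and 179, 193 and 80.4 at 4 h. This long transcript, with a ratio of 10.5, had overlapping 2 h and 4 h libraries, all above the earlier ones. Number 50 (2682 nt) was at 6.47, 4.37 and 0 TPM in untreated cells, 18.2, 65.3 and 15.2 at 30 min, 46.1, 92.0 and 47.2 at 1 h, 252, 285 and 186 at 2 h and 310.2, 346 and 653 at 4 h. Untreated replicate 3 was listed at 0, and the 30 min and 1 h groups overlapped. Number 36 (1836 nt) had no untreated library with a count that rounds to 1, and was at 0.511, 112 and 0.56 TPM at 30 min, then 47.3, 127 and 36.3 at 1 h, 609, 378 and 245 at 2 h and 858, 206 and 577 at 4 h. The early level of number 36 at 30 min rested on replicate 2, since the other two libraries were under 1 TPM.

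The 5 smallest ratios lay just above the limit. Number 81 (525 nt) was at 7.71, 11.8 and 0 TPM in untreated cells, 202, 111 and 22.3 at 30 min, 156, 60.5 and 27.2 at 1 h, 195, 181 and 23.4 at 2 h and 83.1, 25.6 and 58.3 at 4 h. Its highest mean was at 2 h, and each LPS group overlapped the others. Number 60 (3093 nt) was at 17.6, 12.8 and 16.4 TPM in untreated cells, 72.9, 232 and 70.7 at 30 min, 254, 215 and 158 at 1 h, 207, 176 and 92.5 at 2 h and 163, 74.7 and 83.0 at 4 h. Among the LPS groups the 1 h libraries were the closest to one another relative to their level, and all LPS groups overlapped. Number 56 (2092 nt) was at 25.8, 17.7 and 6.36 TPM in untreated cells, 326, 157 and 94.6 at 30 min, 258, 98.3 and 79.9 at 1 h, 273, 188 and 138 at 2 h and 129, 59.0 and 109 at 4 h. Replicate 1 was the highest library at every time, untreated cells included. Number 30 (2010 nt) was at 23.3, 45.8 and 12.9 TPM in untreated cells, 149.8, 483 and 298 at 30 min, 308, 488 and 274 at 1 h, 194, 379 and 282 at 2 h and 199, 255 and 108 at 4 h. Replicate 2 was the highest at every time, and the 1 h libraries all lay above those of 4 h. Number 47 (7466 nt) was at 28.9, 48.3 and 28.3 TPM in untreated cells, 77.5, 305 and 112 at 30 min, 232, 404 and 228 at 1 h, 233, 232 and 201 at 2 h and 189, 171 and 98.0 at 4 h. The longest of the 121, it had its 4 h libraries below those of 1 h and 2 h.

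Close to the limits the choice turned on small differences. For the lowest of the 4 folds, the nearest inside were 4.02, 4.02 and 4.04 (numbers 21, 89 and 109), and 146 transcripts had a lowest fold over 1 and met the other conditions but not this one, the nearest at 3.98, 3.96 and 3.95. For the 4 h ratio the nearest inside were 0.502, 0.514 and 0.517, and the nearest outside 0.499, 0.497 and 0.492. For the gap between the lowest LPS and the highest untreated library, each plus 1, the nearest inside were ratios of 1.07, 1.08 and 1.10 (numbers 117, 7 and 102), and 89 transcripts failed that condition alone, the nearest with equal values.

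The rule set no limit on single steps between successive LPS times, but it read the same libraries and kept the 4 h mean over 0.5 of the larger early mean. It also asked for a fold of at least 4 at each time. The counts of transcripts higher or lower at each step, that from 30 min to 1 h included, are therefore partly fixed by the choice. Nothing is read from their being few or many. Of the 120 tested transcripts, none was called changed between 30 min and 1 h by edgeR (background 0.0% in either direction). At an unadjusted p under 0.05 there were 6 of the 120, where 4.71% of all tested transcripts were, so in this fit the share is near the background. With the block there were 16 of the 120 and 4006 of all 46186. By limma on log2 of rescaled TPM plus 1 there were 18 of the 120 and 2491 of all 46185. In these 2 fits the share of the 120 was above that of all tested transcripts. limma called 0 (background 0.0%), and DESeq2 called 1 raised of 119 (background 0.272%), number 93, which is named after its values were seen. The log2 change fitted by edgeR without the block was above 0 for 98 of the 120 (median 0.36, from -0.60 to 2.80), with a median standard error of 0.76. With the block it was above 0 for 105 (median 0.60), with a median standard error of 0.58. By library, 22 of the 120 had all 3 of their 1 h libraries above all 3 of their 30 min libraries, where 3.68% of all tested transcripts did, and none lay fully below, where 4.63% did. The change fitted without the block turned on single libraries. Without 30 min replicate 2 its median was 1.40, with 44 of the 120 at an unadjusted p under 0.05 (background 5.32%) and still none called by edgeR. The transcripts were chosen with this library included, and 32 of those chosen fell under the 4-fold condition at 30 min without it. The larger change without it is thus partly fixed by the choice, and nothing is read from the 44 against the background. Without 30 min replicate 1 the median was 0.08, with 4 at that p (background 4.68%). Without 30 min replicate 3 it was 0.37, also with 4 (background 4.61%), and without 1 h replicate 3 it was 0.62.

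Between 1 h and 2 h, 1 of the 120 was called raised by edgeR and none lowered, where 0.325% and 0.0974% of all tested transcripts were. At an unadjusted p under 0.05 there were 5 (background 11.5%), and with the block 14 of the 120 and 8216 of all 46186. The call was number 88, with a log2 change of 3.62 (SE 0.64, adjusted p = 0.0414), and all 3 of its 2 h libraries lay above all 3 of its 1 h libraries. Over 20 alternative fits its change ran from 3.19 to 4.16 and its adjusted p from 1.24e-06 to 0.137. The call was kept in 5 of them, and in 1 of the 15 that left out a library, the one without 4 h replicate 3. Those 15 were fitted without the block. In the blocked fit 3 were called raised and none lowered (background 2.69% and 1.52%), numbers 49, 57 and 88, with log2 changes of 2.77 (SE 0.53), 3.50 (SE 0.53) and 3.74 (SE 0.59). Their adjusted p by edgeR with the block was 0.0197, 0.00778 and 0.00874. DESeq2 and limma called the same 3, where 3.49% and 0.658% of all transcripts were called raised, so that with DESeq2 and the block the share was no higher than the background. Without the filter on low counts edgeR called none (background 0.0239%). The 4 h ratios of numbers 49, 57 and 88, which are computed from the same 1 h libraries, are no separate support. The adjusted p of edgeR without the block was 0.121 for number 49 and 0.0511 for number 57, with ranges over the alternatives of 0.00587 to 0.365 and 2.87e-05 to 0.182. Over the 120, changes went both ways in equal measure, 59 above 0 and 61 below, with a median of -0.01 and a range from -1.69 to 3.62. By library, 12 lay fully higher at 2 h (background 8.46%) and 13 fully lower (background 9.45%), which are shares close to those of all transcripts.

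Between 2 h and 4 h no transcript of the 120 was called by edgeR (background 0.013% raised and 0.039% lowered). At an unadjusted p under 0.05 there were 4 of the 120 (background 6.78%), and with the block 6 of the 120 and 5567 of all 46186. limma called 0 (background 0.0476% raised and 0.0996% lowered), and DESeq2 called 1 raised of 119 (background 1.03%), number 98, likewise named after its values were seen. With the block 1 was called raised and none lowered (background 0.338% and 0.491%), number 52, by 1.82 on the log2 scale (SE 0.32, adjusted p = 0.0313 by edgeR), against an adjusted p of 0.796 without the block and a range of 0.0313 to 1 over the alternatives. Number 52 (636 nt) was at 7.20, 1.39 and 1.10 TPM in untreated cells, 234, 127 and 45.6 at 30 min, 334, 113 and 38.6 at 1 h, 169, 121 and 32.2 at 2 h and 573, 367 and 90.6 at 4 h. In each replicate number the 4 h library was the highest, while the replicates differed several-fold at each time. By library, 7 lay fully higher at 4 h (background 3.33%) and 7 fully lower (background 9.07%). The median standard error of a change was 0.75 without the block and 0.57 with it. A 2-fold difference between successive times was thus not detectable at an adjusted p under 0.05 for a typical transcript with these libraries. The absence of calls does not show that levels were equal.

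The scale mattered for how late levels compare with early ones. In log2 of rescaled TPM plus 1, the median of all tested transcripts lay at -0.32, -0.40, -0.45 and -0.65 against untreated cells at the 4 times. With edgeR's TMM scaling it lay between -0.06 and 0.01. In the edgeR fit the members' median log2 folds were 4.27, 4.56, 4.85 and 5.10, against 3.27, 3.75, 4.01 and 3.89 on the TPM scale with 1 added. The ratio of 4 h to the larger early mean had a median of 1.08 on CPM with TMM, against 0.900 on TPM without an added 1, so that whether the typical transcript was a little up or a little down at 4 h turned with the scaling. On CPM with TMM 68 transcripts were above 1, 55 had their highest mean at 4 h and 39 at 1 h, and none was at or under 0.5.

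Within replicate numbers the pattern was looser than in the means. All 121 transcripts were above the same-numbered untreated library at every time, as the choice requires. A fold of at least 4 at 30 min was met by 60 in replicate 1, 118 in replicate 2 and 103 in replicate 3, while at 1 h it was met by 118, 118 and 117. The 4 h level was over 0.5 of the larger early level for 105, 102 and 96, and for 75 in all 3. Both the folds and the held level were met in all 3 numbers by 25 transcripts.

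In length, which the rule did not use directly, the transcripts had a median of 1882 nt (316 to 7466), against 2088 nt for all tested transcripts and 1269 nt for the 59 that met the other conditions but were lower at 4 h. Those under 700 nt made up 22.3% (27 of 121), against 15.1% of all tested and 20.3% of the 59. Short transcripts rested on fewer reads: the lowest LPS library had a median of 18 estimated counts for the 27 and 191 for the others. Of the 121, 66 had at least 100 estimated counts in every LPS library and 13 had under 10 in some library. The 59 had a lower level too, with a median of 73.0 TPM over the LPS libraries against 147 for the 121. Their summed level went from 520 ± 137 TPM in untreated cells to 16444 ± 3197 at 1 h and 5512 ± 693 at 4 h. The median coefficient of variation between libraries of the 121 was 70.8%, 35.5%, 40.5% and 44.1% over the 4 times. For the 1797 tested transcripts within 2-fold of their median level it was 52.0%, 43.8%, 41.5% and 44.6%. The 121 were kept for having every LPS library above every untreated one in these same libraries, and the 1797 were not, so the values are a description.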

How the data were processed

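Chromatin-associated RNA of 15 libraries was quantified by the authors with kallisto 0.44.0, per the submitters' processing notes; for the annotation, genome build and fragment length nothing is stated in these sources. Each file that the authors deposited holds an estimated count and a TPM value per transcript, which sums to 1000000 per library. Of the identifiers, 0 matched the reference table of 49997 genes, so gene lists, sums per gene, marker checks and promoters were not used. Values per library are given for the 12 highest members, the 5 largest and 5 smallest 4 h ratios and those called between successive times; the 2 highest are named by identifier. The members and lists were chosen with earlier results of these data known. Estimated counts were rounded to whole numbers and tested with edgeR 4.0.16 in R 4.3.3 (quasi-likelihood, TMM factors from 0.679 to 1.52, filterByExpr with a minimum count of 10, all 15 libraries, group only), adjusted by the Benjamini-Hochberg method over 46186 transcripts, called at an adjusted p under 0.05. Standard errors are the log2 change over the root of the F statistic. DESeq2 1.42.0 and limma 3.58.1 were alternatives, as were other scalings, filters and each library left out. Scripts were tested on simulated counts. Over all tested transcripts, deviations from group means correlated between all 30 pairs of same-numbered libraries of different groups (0.20 to 0.457). Over the 120 members tested these correlations ran from -0.107 to 0.690, with 28 of the 30 over 0.1. The number was taken to pair the libraries, and the block is given where it changes a count of calls at an adjusted p under 0.05. The pairing comes from the data, since no label ties a number to a batch or animal. Libraries were unstranded, so overlapping opposite transcripts cannot be told apart, and kallisto splits reads among isoforms, an error that is not included here. A p-value here sets a difference between groups against the spread of these libraries only, and that spread may be technical. Lower bounds use 3 counts per library and cover counting error only.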

Additional observations from a re-analysis of the deposited data

Results flagged for a closer look

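One result is marked because groups at successive times differed in the fit across all transcripts. Transcript number 88 (4968 nt) was higher at 2 h than at 1 h by a log2 change of 3.62 (edgeR, adjusted p = 0.0414, adjusted p from 1.24e-06 to 0.137 over 20 alternatives), in all 3 same-numbered pairs. By edgeR with the replicate block its adjusted p was 0.00874. Groups of 3 libraries were too small for the search for single outlying libraries.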

How the results depend on the processing

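The number of transcripts chosen was 121, and became 212 with a fold of 2, 59 with a fold of 8, 76 with a 4 h level over 0.75 and 210 without the condition on libraries. It was 148 with 0.1 added to TPM in place of 1, 90 with 5 added and 157 on CPM with TMM. Of these, 120, 87 and 109 were among the 121. With 1 library left out the number ran from 95 to 170. The median log2 folds were 4.27, 4.56, 4.85 and 5.10 over the 4 times in the edgeR fit. With 0.1 added to TPM in place of 1 they were 3.76, 4.14, 4.30 and 4.28, and with 5 added 2.70, 3.27, 3.30 and 3.28. With 1 library left out the medians ran over the 4 times from 2.77 to 3.54, 3.62 to 3.91, 3.86 to 4.20 and 3.73 to 3.96. Calls against untreated cells at 30 min numbered 86 with the replicate block and 116 with DESeq2. With 1 library left out they ran over the 4 times from 2 to 80, 18 to 97, 36 to 106 and 79 to 117. Raised calls over all tested transcripts then ran from 5 to 296, 46 to 562, 133 to 929 and 750 to 1811. Between 1 h and 2 h the count was 3 with the replicate block, DESeq2 or limma and 0 without the filter. It was 1 with DESeq2 between 30 min and 1 h, and 1 with the block or DESeq2 between 2 h and 4 h. With 1 library left out these counts ran from 0 to 0, 0 to 1 and 0 to 0, and only without 4 h replicate 3 was the call between 1 h and 2 h kept. The cause of these differences was not tested. Sums per gene were not run, since transcripts were not paired with genes.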
